A study of Mus musculus with 12 samples.

Results

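The spliceosomal Sm, LSm and snRNP genes are the 30 genes, of 25162 in the table, whose symbol starts with Snrp or Snrnp or is Lsm followed by a number. They were followed in polyadenylated RNA of mouse oocytes at the stages NGO, GO and FGO. The labels leave these names unexplained, and in oocyte work they usually mean non-growing, growing and fully grown. The control carries Rnaseh1 fl/fl, a floxed Rnaseh1, and is WT in the labels. The other genotype, Rnaseh1 oo-/-, is the oocyte deletion and is KO in the labels. Rnaseh1 encodes RNase H1, which cuts the RNA strand of RNA-DNA hybrids. The labels name 2 samples of 10 oocytes for each genotype and stage, but the table holds 1 column for each, so 6 in all. No value below has a replicate, and no test, SD or p-value could be given. The sources used here do not give the Cre line, the strain or the age.

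Small nuclear RNAs work as RNA-protein particles, the snRNPs, that remove introns from pre-mRNA. Sm proteins close into a ring around the U1, U2, U4 and U5 RNAs, while a related ring of LSm proteins holds the end of the U6 RNA. A cytoplasmic LSm ring with Lsm1 in place of Lsm8 binds mRNA on its way to decapping and decay. Growing oocytes transcribe and splice a large store of maternal mRNA, and fully grown oocytes then become transcriptionally silent and live on that store.

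Values are FPKM, fragments per kilobase of transcript and per unit of depth, which the authors adjusted to an added spike-in RNA. FPKM is a level per length, and genes are set side by side below on that basis. How well it compares genes of different length was not tested. Differences are of log2(FPKM + 1) with KO minus WT, or the later minus the earlier stage. A difference of at least 1 in size, 2-fold on that scale, is called higher or lower. "After rescaling" refers to columns put on a common scale by median-ratio factors, which sets the median gene near 0. Of the 30 genes, 29 had a mean of at least 1 FPKM and are compared, beside all 10110 genes that passed this filter. Snrnp35 had a lower mean and is given by its values. A lower value cannot be told apart from fewer intact oocytes in a sample or less RNA in each. The number of reads behind a column is unknown.

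Rnaseh1 in KO stood at 10.8% of WT at NGO, 11.2% at GO and 27.6% at FGO. The KO to WT ratio of summed FPKM was 0.842, 0.925 and 1.58 at the 3 stages, and the median log2 difference of all genes compared was -0.11, -0.09 and 0.72. Of 15 oocyte markers, at least 14 were at 1 FPKM or more in every column. Of 19 granulosa cell markers, 0 to 6 reached 1 FPKM in a WT column and 1 to 9 in a KO column. Their summed level ran from 3.72 FPKM in WT NGO to 82.8 FPKM in KO FGO, and was 38.1 FPKM in WT FGO. The granulosa genes Amh and Foxl2 stayed under 0.5 FPKM in each column. Among markers of higher level, KO FGO exceeded WT FGO for Esr2 (37.3 against 21.3 FPKM), Cyp19a1 (10.4 against 6.16) and Inha (9.32 against 1.17). The same held for Gja1 (6.96 against 0.965), Nr5a2 (4.52 against 2.24) and Hsd17b1 (3.71 against 0.845). These values are as deposited, where the summed FPKM of KO FGO was 1.58 times that of WT FGO. Inhba, Inhbb and Foxl2, each under 1 FPKM at FGO, were lower in KO FGO than in WT FGO. Of 20 markers of theca and stroma, immune, endothelial and blood cells, at most 3 were at 1 FPKM or more in a column, the endothelial gene Pecam1 reaching 14.6 FPKM in KO FGO. The part of these other cells in the differences below was not tested.

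As a share of the summed FPKM of a column, which no common scaling can change, the 30 genes held less in KO than in WT at each stage. They made up 0.343%, 0.332% and 0.323% of the WT columns at NGO, GO and FGO. In KO the shares were 0.282%, 0.234% and 0.266%. The Sm ring genes went from 0.0838% in WT to 0.0623% in KO at GO, and the LSm ring genes from 0.0991% to 0.0579%. The U1 particle genes were an exception at FGO, with 0.0273% in WT and 0.0300% in KO. Among single genes, Lsm12 and Snrpn had a larger share in KO at each stage. Others, such as Snrpb, Lsm1, Lsm8 and Snrpa, had a larger share in KO at FGO.

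**Figure D1:**
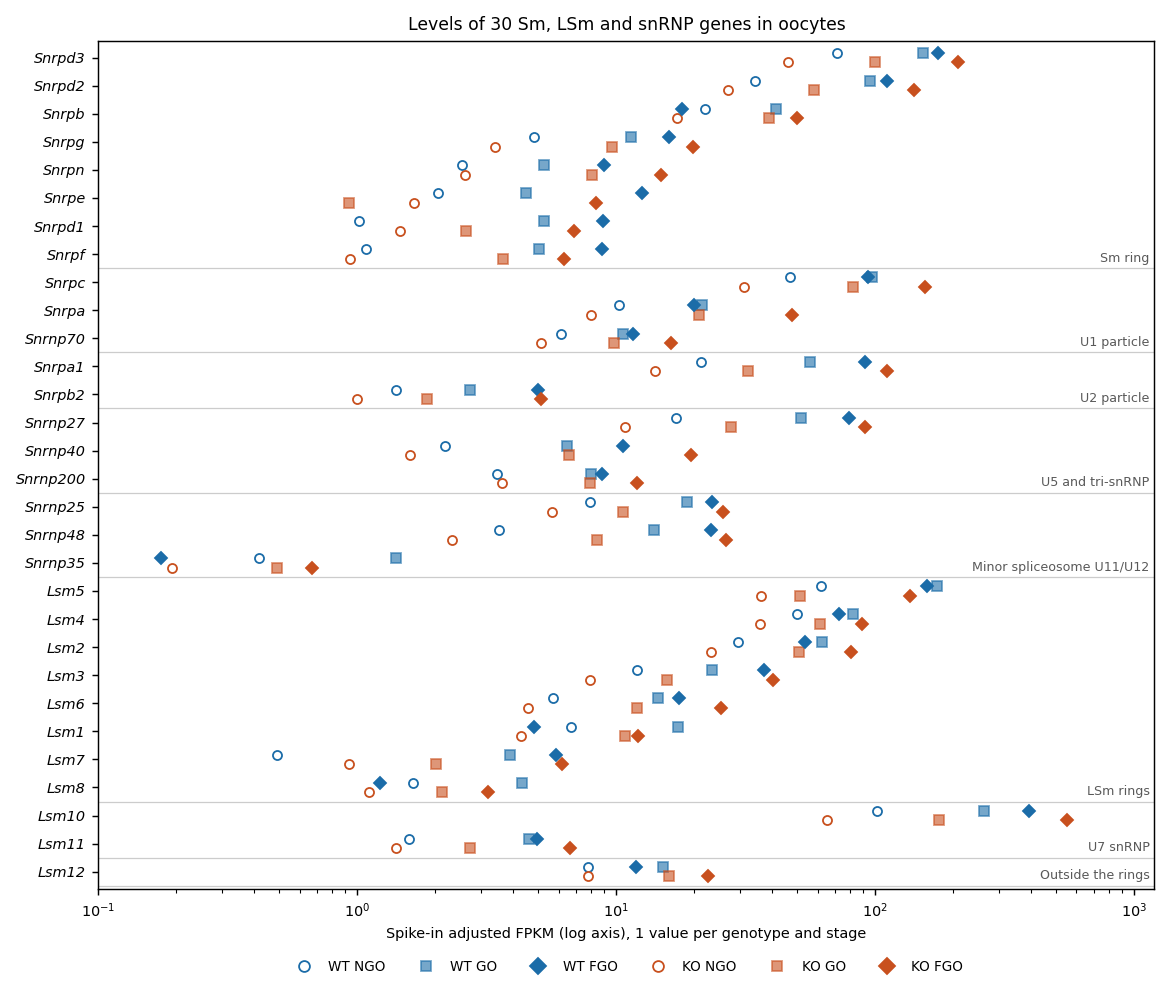
Spike-in adjusted FPKM of the 30 genes on a log axis, in rows by particle. Each point is the single value of 1 genotype (WT blue, KO orange) and stage (open circle NGO, square GO, diamond FGO). Lsm10 is the highest of the 30 in all 6 columns, and 23 genes have their highest value in KO FGO.

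The Sm ring genes differed widely in level. Snrpd3, which encodes SmD3, led the ring at 71.4, 154 and 175 FPKM in WT at NGO, GO and FGO, and at 46.1, 99.6 and 209 in KO. Snrpd2, which encodes SmD2, was at 34.3, 95.3 and 111 FPKM in WT and at 26.9, 58.2 and 142 in KO. Both genes were lower in KO at NGO and GO and higher at FGO as deposited. After rescaling their differences at FGO were -0.53 for Snrpd3 and -0.44 for Snrpd2. Snrpg, which encodes SmG, was at 4.80, 11.4 and 16.1 FPKM in WT and at 3.39, 9.62 and 19.9 in KO. Snrpd1, for SmD1, was at 1.02, 5.28 and 8.93 FPKM in WT and at 1.46, 2.63 and 6.87 in KO. It was higher in KO at NGO and lower at the other stages. Ring subunits join in equal numbers, yet the highest ring gene stood 70.0, 34.5 and 19.9 times above the lowest in the WT columns. In the KO columns the same ratio was 49.1, 107 and 33.1. The lowest gene of each column was Snrpd1, Snrpe or Snrpf, whose levels are uncertain because of the near-identical copies given below. Snrpd3 has no such copy. The part of these copies in the spread was not tested.

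Snrpe and Snrpf, which encode the neighbouring subunits SmE and SmF, were the ring genes furthest below the median gene in KO at FGO. The gene Snrpe lies on chromosome 1 of mm10 from 133603871 to 133610291, on the minus strand. It was at 2.06, 4.47 and 12.6 FPKM in WT and at 1.66, 0.932 and 8.37 in KO. It was the one member with a lower value at GO than at NGO in KO. Its KO value was 20.9% of WT at GO and 66.6% at FGO. The log2 difference was -1.50 at GO and -0.53 at FGO, and -1.34 and -1.17 after rescaling, so that only GO was called as deposited. Snrpf was at 1.08, 5.04 and 8.78 FPKM in WT and at 0.938, 3.66 and 6.31 in KO. At FGO its difference was -0.42 as deposited and -1.03 after rescaling. Snrpe, Snrpf, Snrpd1 and Lsm5 were the 4 members below WT at FGO as deposited. The background for that direction was 4.56% of all genes compared.

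Snrpb and Snrpn encode SmB and SmN, alternative forms of the same ring subunit. Snrpn is an imprinted gene, active on the paternal copy and known for its use in brain. Snrpb lies on chromosome 2 from 130171414 to 130179403 and Snrpn on chromosome 7 from 59982495 to 60140219, both on the minus strand. Snrpb was at 22.1, 41.3 and 17.9 FPKM in WT and at 17.2, 38.8 and 49.8 in KO. The WT value at FGO was 43.3% of that at GO, while the KO value was 128% of its own GO value. After rescaling the steps from GO to FGO were -1.17 in WT and -0.51 in KO. Snrpb at FGO thus stood 1.42 higher in KO, the largest difference among the members there, and 0.65 higher after rescaling. Snrpn was at 2.54, 5.28 and 8.98 FPKM in WT and at 2.61, 8.07 and 14.9 in KO. It was the member furthest above the median gene in KO at GO, at 0.53 as deposited and 0.58 after rescaling. The ratio of Snrpb to Snrpn, which needs no scaling, was 8.70, 7.83 and 1.99 in WT and 6.60, 4.81 and 3.35 in KO. In both genotypes the ratio was lowest at FGO. Their transcripts shared no stretch of 200 bases at 90% identity or more, unlike the pairs given below.

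The U1 particle recognises the start of an intron. Its zinc finger protein gene Snrpc was at 46.8, 97.5 and 94.1 FPKM in WT and at 31.2, 82.0 and 155 in KO. Snrpa, whose product binds a U1 stem-loop and also regulates polyadenylation, was at 10.2, 21.5 and 19.95 FPKM in WT and at 7.98, 20.98 and 47.6 in KO. The difference of Snrpa at FGO was 1.21, a call, and 0.44 after rescaling. Snrnp70, which links U1 to splicing regulators, was at 6.15, 10.6 and 11.6 FPKM in WT and at 5.13, 9.79 and 16.3 in KO. Its KO and WT values were close at GO, with a difference of -0.11. At GO the rescaled differences of these genes ran from -0.17 to 0.04, close to the median gene.

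In the U2 particle, which binds the branch point, Snrpa1 and Snrpb2 encode partners that sit together on the U2 RNA. Snrpa1 was at 21.3, 56.2 and 91.2 FPKM in WT and at 14.1, 32.3 and 111 in KO. Snrpb2 was far lower, at 1.41, 2.74 and 4.99 FPKM in WT and at 1.001, 1.86 and 5.14 in KO. Both were below the median gene in KO at each stage. Their rescaled differences at GO were -0.70 for Snrpa1 and -0.31 for Snrpb2.

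Among the genes of the U5 particle and the tri-snRNP, Snrnp27 stood apart from the other two. This gene for a small protein of the tri-snRNP was at 17.0, 51.8 and 79.2 FPKM in WT and at 10.8, 27.7 and 91.5 in KO. At GO its difference was -0.88, and -0.80 after rescaling. Snrnp40, a WD-repeat protein of U5, was at 2.19, 6.45 and 10.6 FPKM in WT and at 1.59, 6.60 and 19.4 in KO. Snrnp200, the helicase that unwinds U4 from U6, was at 3.45, 7.996 and 8.84 FPKM in WT and at 3.61, 7.92 and 11.98 in KO. At GO these U5 genes differed by 0.03 and -0.01, less than any of the U2 genes.

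The minor spliceosome, which removes a rare class of introns with U11 and U12 RNA, has 3 members. Snrnp25 was at 7.94, 18.7 and 23.5 FPKM in WT and at 5.64, 10.6 and 25.9 in KO. Snrnp48 was at 3.52, 14.0 and 23.2 FPKM in WT and at 2.32, 8.41 and 26.6 in KO. Their differences were -0.76 and -0.68 at GO and 0.13 and 0.19 at FGO. After rescaling they were -0.68 and -0.59 at GO and -0.61 and -0.55 at FGO. Snrnp35 was at 0.416, 1.41 and 0.174 FPKM in WT and at 0.192, 0.490 and 0.666 in KO. As deposited its level in WT was highest at GO and in KO at FGO, where all KO values were under 1 FPKM. After rescaling its KO step from GO to FGO was -0.11.

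Both LSm rings share the products of Lsm2 to Lsm7. Lsm5 lies on chromosome 6 from 56701063 to 56704710, on the minus strand. It had the highest level of these in WT, at 61.6, 173 and 159 FPKM, and was at 36.3, 51.1 and 137 FPKM in KO. KO was lower at each stage, at 58.8%, 29.6% and 86.01% of WT. The difference at GO was -1.74 as deposited and -1.66 after rescaling, the 10th lowest of the 10110 genes. At FGO the rescaled difference was -0.995, just short of a call. Lsm4 was at 50.04, 82.0 and 72.9 FPKM in WT and at 36.1, 61.5 and 89.4 in KO. Lsm2 was at 29.6, 62.6 and 53.8 FPKM in WT and at 23.3, 50.7 and 81.0 in KO. For Lsm4 and Lsm2, KO was below WT at NGO and GO and above it at FGO as deposited. After rescaling the differences at FGO were -0.48 and -0.19.

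Lsm3 was at 12.03, 23.5 and 37.3 FPKM in WT and at 7.89, 15.8 and 40.2 in KO. Lsm6 was at 5.71, 14.5 and 17.5 FPKM in WT and at 4.56, 12.04 and 25.3 in KO. Lsm7, the lowest of the shared ring genes, was at 0.489, 3.87 and 5.87 FPKM in WT and at 0.929, 2.01 and 6.16 in KO. Lsm7 and Snrpd1 were the members furthest above the median gene in KO at NGO, by 0.64 and 0.50 after rescaling, from levels at or under 1.46 FPKM. At GO all 8 genes of the LSm rings were lower in KO, with rescaled differences from -1.66 to -0.18.

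The subunits that tell the rings apart are Lsm1, for the cytoplasmic decay ring, and Lsm8, for the nuclear U6 ring. Lsm1 lies on chromosome 8 from 25785288 to 25803975 and Lsm8 on chromosome 6 from 18848579 to 18855751, both on the plus strand. Lsm1 was at 6.70, 17.3 and 4.80 FPKM in WT and at 4.29, 10.8 and 12.2 in KO. Lsm8 was at 1.64, 4.31 and 1.22 FPKM in WT and at 1.11, 2.12 and 3.19 in KO. In WT both were highest at GO and lowest at FGO, where they stood at 27.7% and 28.4% of the GO level. In KO both were highest at FGO as deposited, at 112% and 150% of the GO level. After rescaling the KO steps from GO to FGO were -0.62 and -0.18, and the WT steps -1.63 and -1.17. At FGO the KO to WT difference was 1.19 for Lsm1, a call, and 0.91 for Lsm8. After rescaling these became 0.45 and 0.32. The ratio of Lsm1 to Lsm8 was 4.08, 4.02 and 3.92 in WT and 3.88, 5.11 and 3.82 in KO.

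Lsm10 and Lsm11 replace SmD1 and SmD2 in the U7 particle, which cuts the ends of canonical histone pre-mRNAs. Lsm10 lies on chromosome 4 from 126096623 to 126098584, on the plus strand. It was at 102, 265 and 392 FPKM in WT and at 65.5, 176 and 553 in KO. Lsm11 was at 1.59, 4.59 and 4.94 FPKM in WT and at 1.41, 2.73 and 6.62 in KO. The ratio of Lsm10 to Lsm11 ran from 46.3 in KO NGO to 83.6 in KO FGO. At GO both were lower in KO by a like amount, -0.59 and -0.58. Lsm12, an LSm-family protein outside the rings, was at 7.77, 15.1 and 11.9 FPKM in WT and at 7.80, 15.95 and 22.7 in KO. It was above the median gene in KO at each stage, by 0.18, 0.14 and 0.13 after rescaling.

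**Figure D2:**
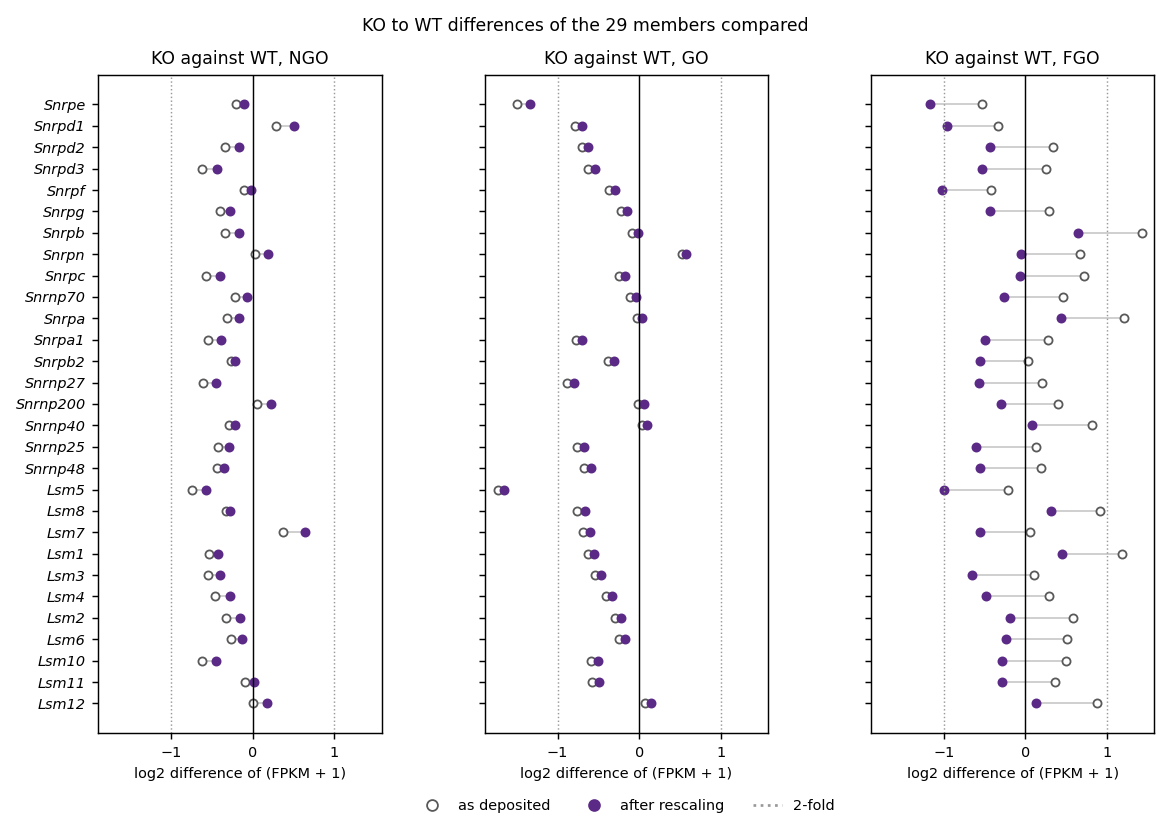
Difference of log2(FPKM + 1), KO minus WT, for the 29 members compared at NGO, GO and FGO. Open points are values as deposited, filled points are after rescaling, and dotted lines mark 2-fold. At GO, 24 filled points lie below 0, with Lsm5 at -1.66 and Snrpe at -1.34 furthest from it. At FGO rescaling moves 19 members from above 0 to below 0.

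At NGO 24 of the 29 members were lower in KO, with a median difference of -0.33, against 70.1% of all genes compared with a median of -0.11. After rescaling 23 of 29 lay below 0, with a median of -0.22, beside 48.4% of all genes. No member was called, with 0 higher (background 0.0297%) and 0 lower (background 0.326%). After rescaling the counts were again 0 and 0, against backgrounds of 0.129% and 0.356%. Lsm5 was the lowest, at -0.75 as deposited and -0.58 after rescaling.

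At GO 26 of 29 were lower in KO with a median of -0.55, where 58.3% of all genes were lower with a median of -0.09. Lsm5 and Snrpe were called lower, 2 of 29 against a background of 2.03%, and 0 were called higher (background 0.950%). Rescaling left 24 of 29 below 0 at a median of -0.47, beside 52.8% of all genes. It left the same pair called lower (background 1.28%) and 0 higher (background 1.05%). The members above 0 were Snrpn, Lsm12, Snrnp40, Snrnp200 and Snrpa, with rescaled differences from 0.04 to 0.58.

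At FGO the direction of most members depended on the scale. As deposited 25 of 29 were higher in KO and the median was 0.34, below the 0.72 of all genes. Called higher were Snrpb, Snrpa and Lsm1, 3 of 29 against a background of 25.8%, and 0 were called lower (background 0.158%). After rescaling 23 of 29 were below 0 with a median of -0.44, beside 47.9% of all genes. The calls were then Snrpe and Snrpf, 2 lower (background 0.940%), and 0 higher (background 1.68%). Snrpb, Lsm1, Snrpa and Lsm8 were the members furthest above the median gene. In all, 18 of the 29 were below 0 after rescaling at each of the 3 stages, where 24.8% of all genes were.

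Short transcripts in general lay below the median gene in KO. Length here is the median over a gene's protein-coding GENCODE M21 transcripts, known for 98.3% of the genes compared. The median member had 1161 nt and the median gene compared 2554 nt. At GO the 963 other genes in the class up to 1000 nt had a median of -0.34 after rescaling, and 81.3% of them lay below 0. The 13 members of that class had a median of -0.60, with 13 below 0. Among genes over 1000 and up to 2000 nt, the 10 members had -0.35 and the 2626 other genes -0.05. At FGO the medians were -0.57 for the members and -0.30 for the other genes in the shorter class, and -0.35 and 0.01 in the next. At NGO they were -0.29 and -0.20, then -0.25 and -0.05. Over 2000 and up to 4000 nt, 4 members had -0.02 at GO and the other genes 0.10. Over 4000 nt, 2 members had -0.22 and the other genes -0.05, so the medians of other genes did not follow length beyond 4000 nt. The part of length in the members' differences was not tested.

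**Figure D3:**
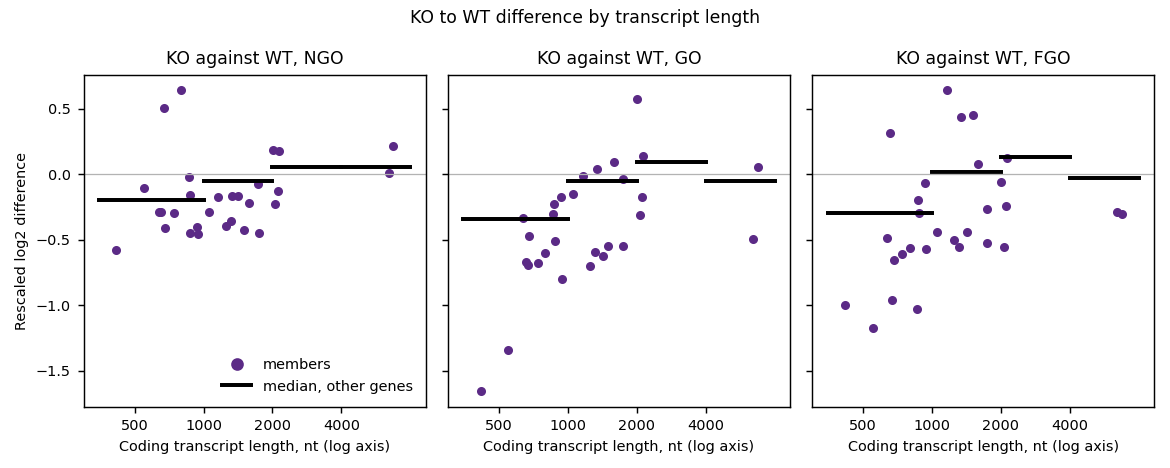
Rescaled KO minus WT log2 difference of the 29 members compared (points) against transcript length on a log axis, at NGO, GO and FGO. Black bars are medians of all other genes in 4 length classes with limits of 1000, 2000 and 4000 nt, the last open to longer genes. The shortest members, Lsm5 and Snrpe, lie lowest at GO, at -1.66 and -1.34, and the bar of the shortest class lies at -0.34.

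Near-identical copies make some values uncertain. Transcripts of 11 members matched 20 loci elsewhere in the annotation at 95% identity or more over at least 200 bases, 19 of them processed pseudogenes. Genes that overlap a member in place are left out of this count. None of the 20 has a line in the table. Reads that fit both places cannot be given to one of them with certainty. The match was 99.6% over 225 bases for Snrpe, 99.2% over 249 bases for Lsm5, 98.8% over 258 bases for Snrpf and 97.8% over 360 bases for Snrpd1. Snrpa matched at 95.2% over 855 bases. Snrpb, Lsm1 and Lsm8 had no such copy, though Lsm1 matched a processed pseudogene just under the limit, at 94.0% over 403 bases. In the 18 compared members without a copy, 16 were below 0 at GO after rescaling, with a median of -0.50 and 0 calls. At FGO 0 of the 18 were below 0 as deposited (background 4.56%) and 14 after rescaling (background 47.9%). Their rescaled median there was -0.39, with 0 called lower (background 0.940%). Snrpe, Snrpf, Snrpd1 and Lsm5, the members below WT at FGO as deposited, each had such a copy. Exons of Snrpa, Snrpd3, Snrpf and Snrpn overlap genes on the other strand, and the libraries do not mark strand. Snrpn also shares exons with Snurf.

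Promoters are shown for Lsm5, Snrpe and Snrnp27, the 3 members furthest below the median gene at GO, a choice made after their values were seen. The sequences are from RefSeq (GRCm38.p6) and run from 250 bases before the start of transcription to 50 after it. Capitals mark CCGGAAGT on either strand, a motif of ETS-family factors, which was 1 of 4 searched. Lsm5 lies on the minus strand at chr6:56704650-56704949, Snrpe on the minus strand at chr1:133610231-133610530 and Snrnp27 on the minus strand at chr6:86684442-86684741.
Lsm5: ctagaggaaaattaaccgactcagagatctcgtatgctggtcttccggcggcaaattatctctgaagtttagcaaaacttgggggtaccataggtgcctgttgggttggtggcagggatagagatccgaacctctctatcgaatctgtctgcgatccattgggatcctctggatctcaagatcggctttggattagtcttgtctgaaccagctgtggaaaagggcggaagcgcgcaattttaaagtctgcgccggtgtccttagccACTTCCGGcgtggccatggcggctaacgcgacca
Snrpe: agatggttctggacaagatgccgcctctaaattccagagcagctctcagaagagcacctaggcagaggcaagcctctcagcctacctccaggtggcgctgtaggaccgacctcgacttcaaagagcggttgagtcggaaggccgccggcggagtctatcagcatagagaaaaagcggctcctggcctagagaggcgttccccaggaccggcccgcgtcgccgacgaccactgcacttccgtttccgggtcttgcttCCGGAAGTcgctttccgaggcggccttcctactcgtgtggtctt
Snrnp27: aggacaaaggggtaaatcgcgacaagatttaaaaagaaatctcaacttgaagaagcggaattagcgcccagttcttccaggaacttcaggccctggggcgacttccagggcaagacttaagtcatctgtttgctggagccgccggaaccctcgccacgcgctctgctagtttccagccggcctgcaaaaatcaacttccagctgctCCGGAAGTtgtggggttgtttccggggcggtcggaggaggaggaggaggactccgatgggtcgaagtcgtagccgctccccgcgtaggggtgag

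RefSeq promoters were matched for 24 of the 30 genes, 30 promoters in all. Besides CCGGAAGT, the motifs searched on both strands were AAGATGGC, TATAAA and the palindromic NRF1 motif, and no member promoter held more than 1 of the 4. CCGGAAGT was in 3 of the 30 member promoters, 10% of them, and these are the 3 printed. It was in 9.05% of the promoters of genes compared and in 3.89% of all promoters. Over the 850 genes compared that hold it, the median at GO after rescaling was -0.000903, and over the 7319 without it -0.03. The NRF1 motif was in 1 member promoter, that of Snrnp70, against 2.23% of the promoters of genes compared. AAGATGGC was in 2 overlapping promoters of Lsm7 (4.79%), and TATAAA in 3, of Snrnp48, Snrpa and Snrpn (7.23%). Member promoters had a median GC content of 56.7% and 20.5 CpG pairs, and those of genes compared 60.7% and 21. The 4 Snrpn promoters held 2 to 7 CpG pairs.

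From NGO to GO the members were higher at the later stage in both genotypes, as the median gene was. In WT all 29 were higher with a median of 1.10, beside 1.06 for all genes, and 21 were called higher (background 54.8%). Snrnp48 had the largest step, 1.74, and Snrpb2 the smallest, 0.63. In KO the median was 1.09 beside 1.10 for all genes, with 16 called higher (background 57.6%). The largest KO steps were 1.55 for Snrnp40 and 1.503 for Snrnp48. The smallest were Snrpe at -0.46 and Lsm5 at 0.48, which had 0.84 and 1.47 in WT. No member was called lower in either genotype, with backgrounds of 0.129% in WT and 0.0890% in KO. After rescaling the medians were -0.072 in WT and -0.26 in KO.

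From GO to FGO the member medians of the genotypes lay further apart as deposited, but not after rescaling, where they were 0.23 in WT and 0.28 in KO. As deposited, in WT the median step was 0.26, beside 0.08 for all genes, and 9 of 29 were lower at FGO (background 45.0%). Lsm1, Lsm8 and Snrpb were called lower, at -1.66, -1.26 and -1.16, which is 3 of 29 against a background of 9.22%. Only Snrpe was called higher, at 1.31 (background 6.50%). In KO 0 of 29 were lower at FGO (background 10.4%), and the median step was 1.06 beside 0.84 for all genes. After rescaling 10 of 29 were lower at FGO in KO and 9 in WT. Called higher in KO were 17 of 29 (background 39.0%) and called lower were 0 (background 0.514%). Snrpe had the largest KO step, 2.28, from its low GO value, followed by Snrpa1 at 1.75 and Snrnp27 at 1.69. Lsm1, Snrpb and Lsm8 had the smallest, at 0.16, 0.35 and 0.42, which became -0.62, -0.51 and -0.18 after rescaling. The WT FGO column enters both this WT step and the KO to WT difference at FGO, and the KO GO column likewise enters the KO steps and the difference at GO. A low WT FGO value therefore shows in both, and the one is no support for the other. KO FGO was the highest column for 23 of the 29 members compared, and for 80.5% of all genes.

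**Figure D4:**
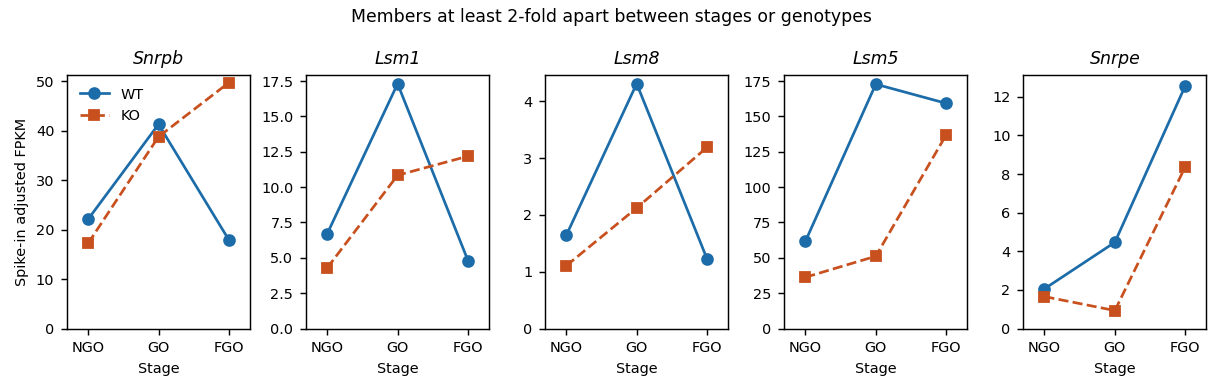
Spike-in adjusted FPKM at NGO, GO and FGO in WT (blue circles) and KO (orange squares) for 5 members called 2-fold apart between stages or genotypes. Each panel has its own axis from 0, and each point is a single value. On this deposited scale Snrpb, Lsm1 and Lsm8 are lower at FGO than at GO in WT but not in KO, while after rescaling the KO steps are negative too, at -0.51, -0.62 and -0.18. KO is lowest relative to WT at GO for Lsm5 and Snrpe.

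The genes that assemble and accompany the snRNPs, from lists that hold no member, lay nearer to the median gene. Of 71 symbols listed, 65 were compared, with rescaled medians of 0.04, 0.05 and 0.05 at NGO, GO and FGO. At GO 27 of the 65 lay below 0, where 24 of the 29 members did. These partners were longer, with a median of 2905 nt and 5 genes of up to 1000 nt. As deposited 3 of 65 were called higher at GO (background 0.950%) and 1 lower (background 2.03%). At FGO 19 of 65 were called higher, near the background of 25.8%, and 0 lower. After rescaling 3 were called higher at FGO (background 1.68%) and 0 lower.

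The SMN complex and the methylation machinery load Sm proteins onto snRNA. After rescaling, the median of their 11 genes compared was 0.28 at GO and 0.18 at FGO, with 0 calls. Strap, an SMN-associated WD-repeat protein, was at 13.3, 27.8 and 22.6 FPKM in WT and at 14.4, 36.8 and 69.7 in KO. Ddx20, the Gemin helicase, was at 1.28, 2.76 and 2.86 FPKM in WT and at 1.80, 5.06 and 7.43 in KO. Both were higher in KO at each stage as deposited. Gemin5, a subunit that recognises snRNA, was at 1.08, 0.901 and 0.629 FPKM in WT and at 1.26, 2.13 and 1.62 in KO. As deposited 7 of the 11 were lower in KO at NGO and 5 at GO, and 11 of 11 were higher at FGO. Of the 10 genes of snRNA transcription, capping and transport, Coil, the scaffold of Cajal bodies where snRNPs mature, was at 5.01 FPKM in WT GO and 1.56 in WT FGO. In KO it was at 8.56 and 7.09. This list had rescaled medians of -0.06 at GO and 0.06 at FGO, with Snapc2 called higher at FGO after rescaling, at 1.98. Tgs1, which modifies the snRNA cap, had 0.671 FPKM at FGO in WT, against 2.92 in KO.

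The 10 SF3 genes of the U2 particle had rescaled medians of 0.13 at GO and -0.17 at FGO. Sf3a2, which contacts U2, was at 0.454 FPKM in WT GO and 1.97 in KO GO, both low levels. The difference of Sf3a2 at GO was 1.03 as deposited, a call, and 0.95 after rescaling, not a call. Sf3b4, which binds pre-mRNA near the branch point, was at 35.6 FPKM in WT GO and 58.8 in KO GO, and Sf3b5, a small subunit, at 18.0 and 13.7. The 13 other U5 and tri-snRNP genes had 0.13 and 0.05. Prpf4, a protein of U4/U6, had 1.81 FPKM at FGO in WT, against 6.23 in KO. Prpf3, its partner, was at 7.84, 17.04 and 22.1 FPKM in WT and at 8.88, 29.6 and 58.6 in KO, and Txnl4a of U5 was at 8.27 in WT FGO and 25.8 in KO FGO. The 7 genes listed for the minor spliceosome had -0.07 and -0.10, with 3 of 7 above 0 at GO and at FGO. Pdcd7 and Zcrb1, proteins of U11/U12, were lower in KO at NGO and GO. Pdcd7 was at 53.7, 216 and 182 FPKM in WT and at 31.6, 98.3 and 170.5 in KO, and Zcrb1 at 190.5, 575 and 737 in WT and 116, 327 and 890.2 in KO. Dhx16, a splicing helicase listed with them, went the other way at GO, at 4.16 in WT and 9.61 in KO.

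Among partners of the decay ring, 7 genes compared had rescaled medians of 0.10 at GO and -0.14 at FGO. Patl2, an oocyte homologue of the decay factor Patl1, was at 125 FPKM in WT GO and 168 in KO GO, and at 24.0 and 126 at FGO, the only call of the list. Ddx6, a helicase of stored and decaying mRNA, was at 5.78 FPKM in WT GO and 3.10 in KO GO, and Dcp2, the decapping enzyme, was at 2.54 and 1.88. The 7 partners of U7 in histone mRNA end formation had 0.18 and 0.05. Zfp473, a U7 zinc finger protein, was at 12.7 FPKM in WT GO and 31.4 in KO GO, and at 6.99 and 31.5 at FGO. Eri1, an exonuclease of histone mRNA, was at 17.5 and 50.3 FPKM at FGO, and Cpsf2, a cleavage factor subunit, at 6.21 and 11.2. Zfp473 was thus higher in KO at GO, where Lsm10 and Lsm11 were lower.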

How the data were processed

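RNA of 12 samples (2 per genotype and stage, 10 oocytes each, with 100 pg of spike-in RNA) was made into Smart-seq2 libraries and read as 150 bp pairs, per the labels' protocols. The submitters' processing notes name Cufflinks 2.2.1, HISAT2 2.2.1 and Trim Galore 0.6.7, with mm10 as the build. The deposited values are FPKM adjusted to the spike-in by the authors. The sources used here do not give the formula, the annotation or how 2 samples became 1 column, and depth is unknown.

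Of 25912 lines, 2 with spreadsheet errors were left out. For 333 symbols on several lines the line of largest mean was kept. No member had several lines or a value of 0. Differences used a pseudocount of 1 and a filter at a mean of 1 FPKM. The planned linear model could not be run on 1 column per group. Alternatives were another pseudocount, filter, scaling and treatment of repeated symbols, and, chosen after seeing the data, leaving out members with near-identical copies. The steps were tested on simulated data. The members and gene lists were chosen with earlier results of these data known. Every member is named. Each has all 6 values, and each partner list names up to 3 genes by the size of their rescaled difference. Coordinates and lengths came from GENCODE M21 and copies from blastn 2.17.0, with Python 3.11.15, numpy 2.4.6 and pandas 2.3.3.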

Additional observations from a re-analysis of the deposited data

How the results depend on the processing

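No paired analysis was possible because the table holds 1 column per genotype and stage, and leaving out each replicate was not run for the same reason. Scaling decided the direction of the median member at FGO, where KO minus WT was 0.34 as deposited, -0.44 with median-ratio scaling and -0.31 with equal column totals. The 3 calls, all higher in KO (background 25.8%), gave way to 2 lower with median-ratio scaling (background 0.940%) and 1 lower with equal totals. For GO against NGO the medians of 1.10 in WT and 1.09 in KO became -0.072 and -0.26 with median-ratio scaling, and -0.042 and -0.27 with equal totals. The 21 calls in WT became 1 under either scaling, also higher at GO. With median-ratio scaling 613 of the 10110 genes compared were called higher there. The 16 in KO, all higher, gave way to 1 lower under either scaling, beside 262 of 10110 genes lower with median-ratio scaling. For FGO against GO in KO the median of 1.06 became 0.28 and 0.14. The 17 calls became 1 under either, also higher, beside 649 of 10110 genes higher with median-ratio scaling. Counts over all genes with equal totals are not given. The shifts of these medians and counts follow from dividing columns by factors that differ between stages and between genotypes. The genotypes differed most at FGO, with median-ratio factors of 1.31 in WT and 2.26 in KO. Among members without a near-identical copy, 18 in place of 29, 0 were called for KO against WT at GO (backgrounds 0.950% higher and 2.03% lower). For GO against NGO 13 were called higher in WT (background 54.8%) and 9 in KO (background 57.6%). For FGO against GO in KO 11 were called higher (background 39.0%). Counts over 18 members cannot be set directly against counts over 29. The other 78 of 98 comparisons of a median or count kept their direction and stayed within 1.5 times, with a median taken as a fold. Small medians can shrink within that limit. For FGO against GO in WT the median was 0.26 as deposited, 0.23 with median-ratio scaling and 0.0099 with equal totals. The pseudocount of 0.1, the filters (none, or a mean of 5 FPKM) and summed lines moved none of these medians or counts past that limit. Depth per column is unknown, so low values such as Snrpe in KO GO carry an unknown counting error.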
